A study of Homo sapiens with 6 samples.

Results

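The 7 genes described here encode the core of the Hippo kinase cassette: STK3, STK4, SAV1, MOB1A, MOB1B, LATS1 and NF2. They were chosen by name, and the deposited YAP and TAZ peaks that overlapped each gene span or the 20 kb on either side of it were collected. Together the 7 windows span 1240 kb, or 0.0409% of the length of chromosomes 1 to 22 and X, each taken up to its last peak. They held 222 of the 392120 peaks of YAP replicate 1 and 216 of the 353336 of YAP replicate 2. They held 219 of the 333505 peaks of TAZ replicate 1 and 214 of the 310657 of TAZ replicate 2. Merged where they overlapped, these peaks formed 244 of the 452943 regions of chromosomes 1 to 22 and X.

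Chromatin immunoprecipitation with sequencing was done in H1299, an established line of human lung cancer (non-small cell type), after 18 hours without serum. The series holds 2 libraries made with an anti-YAP antibody, 2 made with an anti-TAZ antibody and 2 input libraries made without antibody; the inputs enter only through the peak calling. All groups are the same serum-starved cells and differ in the antibody alone. Nothing in the labels says that the replicates came from separate cultures, and the SDs and p-values measure how libraries differ, which can be technical. The files give no read totals, so depth is unknown.

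In the Hippo pathway, the kinases STK4 (MST1) and STK3 (MST2), held by the scaffold SAV1, phosphorylate LATS kinases and their MOB1 coactivators. The LATS kinases in turn phosphorylate YAP and TAZ, which keeps them out of the nucleus and leads to their degradation. NF2 (merlin) acts upstream and brings LATS kinases to the membrane. YAP and TAZ bind no DNA themselves and reach chromatin mainly through TEAD factors, often beside AP-1. In H1299 the 7 genes are thus loci of the kinases and helpers that restrain the immunoprecipitated proteins.

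All 7 loci were covered by peaks of both antibodies. Because the lists differ in length, the percentage of a locus under peaks was divided by the percentage of the whole genome under peaks in the same list; this ratio is called relative coverage, and 1 is the genome-wide level. The whole-list coverage was 16.9% and 14.8% for YAP and 13.3% and 14.02% for TAZ. LATS1 had the highest relative coverage, at 4.40 as the mean of the 4 libraries, followed by MOB1A at 3.54, NF2 at 2.47, MOB1B at 2.32, SAV1 at 1.30, STK4 at 1.28 and STK3 at 1.23. The lowest library at LATS1, 4.10, lay above the highest at MOB1A, 3.88. NF2 and MOB1B overlapped in their library values, and so did SAV1, STK4 and STK3. The lowest library at MOB1B, 1.78, still lay above the highest at these last loci, 1.54. Over 28365 tiles of 100 kb that held any peak, the median relative coverage was 0.568 and the middle 50% lay between 0.305 and 1.40. Tiles were not matched to genes, so these values are a description only.

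**Figure D1:**
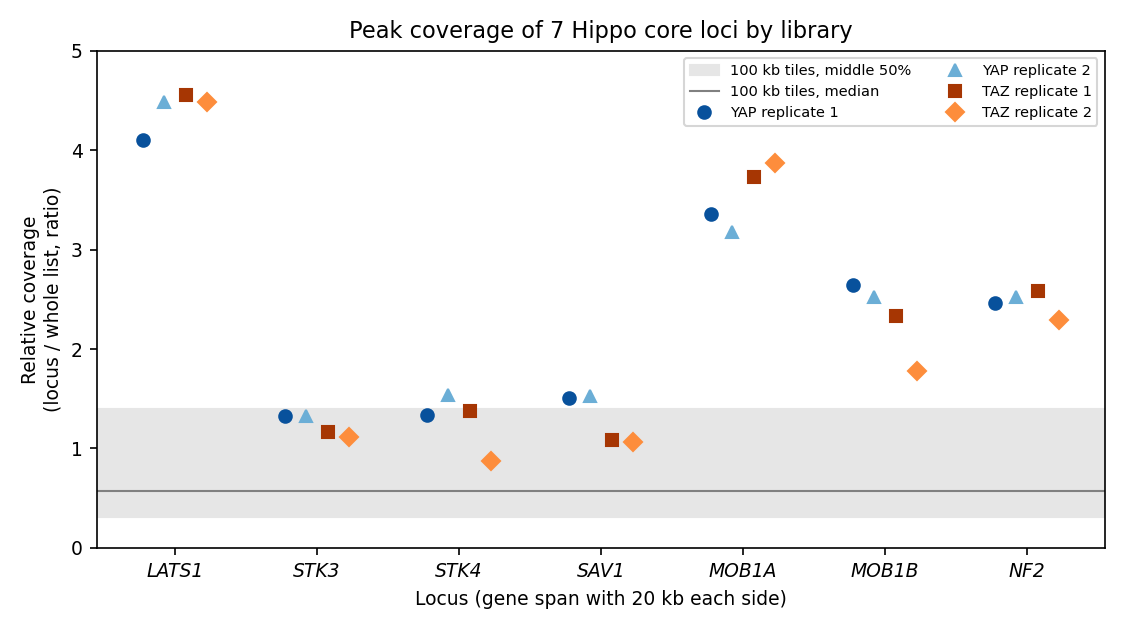
Relative coverage (ratio, linear axis) of each locus in the 4 libraries; circles and triangles are the YAP libraries, squares and diamonds the TAZ libraries, and the grey line and band are the median (0.568) and the middle 50% (0.305 to 1.40) of 100 kb tiles. LATS1 and MOB1A stand highest with both antibodies, and STK3, STK4 and SAV1 lie lowest, between 0.870 and 1.54.

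NF2 encodes merlin, the membrane-linked upstream activator of the cassette. Its span lies at chr22:29999001-30095000 (hg19), on the plus strand. Peaks covered 41.7% and 37.3% of the NF2 window for YAP, and 34.5% and 32.2% for TAZ, in 21, 21, 23 and 25 peaks. Relative to each list, the values were 2.46, 2.52, 2.58 and 2.30, and the antibodies overlapped. The coverage was concentrated upstream: the 20 kb before the 5′ end were covered to 84.8% ± 8.5 (SD, n = 2) by YAP peaks and 80.6% ± 18.3 by TAZ peaks. The 20 kb after the 3′ end were covered to 9.83% ± 2.67 and 26.7% ± 5.0, and here both TAZ libraries, at 23.1% and 30.2%, lay above both YAP libraries, at 11.7% and 7.94%. The best-ranked region shared by all 4 libraries lay in the gene at chr22:30015006-30022441, where the authors' fold over input was 3.67 and 3.30 with anti-YAP and 4.40 and 3.70 with anti-TAZ. That region ranked in the best 27.8% and 44.5% of the YAP lists and the best 7.54% and 14.7% of the TAZ lists. No NF2 peak was among the strong peaks of any library, the 20000 of each list with the highest −log10 q.

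STK4, on the plus strand at chr20:43595001-43709000, encodes the upstream kinase MST1. Peaks of YAP covered 22.7% and 22.7% of its window, and those of TAZ 18.4% and 12.2%. Relative coverage was 1.34 and 1.54 for YAP and 1.38 and 0.870 for TAZ. TAZ replicate 2 stood apart from the others, and the antibodies overlapped. Against its own surroundings, the 500 kb on each side, STK4 was less covered in every library, with YAP ratios of 0.750 and 0.793 and TAZ ratios of 0.744 and 0.403. Most of its coverage lay inside the gene: up to the midpoint of the span, YAP peaks covered 34.4% ± 2.4 and TAZ peaks 18.8% ± 8.4 (SD, n = 2). The 20 kb before the 5′ end were covered to 6.89% ± 1.91 and 10.3% ± 5.7, and the 20 kb beyond the 3′ end to 2.48% ± 1.22 and 4.73% ± 2.53. A region upstream of the gene, at chr20:43590843-43591775, held the best-ranked STK4 peak of YAP replicate 1, with a fold of 4.62, against 2.56 in YAP replicate 2 and 3.14 and 2.74 in the TAZ libraries. The region at chr20:43684244-43684751, 89.2 kb from the 5′ end, was the best-ranked of those shared by all 4 libraries. Its YAP folds were 4.05 and 3.65 and its TAZ folds 4.17 and 3.51. A further region at chr20:43652381-43652919 had the highest fold of the locus in the second library of each antibody, 5.35 for YAP and 4.48 for TAZ, against 4.14 and 3.05 in the libraries numbered 1.

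STK3 encodes MST2, the paralog of MST1, in a much longer gene on the minus strand at chr8:99413001-99955000. It held 104 and 102 YAP peaks and 97 and 94 TAZ peaks, and their coverage was 22.4% and 19.6% for YAP and 15.5% and 15.7% for TAZ. Relative coverage was 1.32 and 1.33 for YAP and 1.16 and 1.12 for TAZ. Both YAP libraries were thus above both TAZ libraries, by 0.185 on average, and the YAP pair differed by far less than that. Like STK4, the locus was less covered than the 500 kb on each side, with YAP ratios of 0.793 and 0.787 and TAZ ratios of 0.726 and 0.729. Up to the midpoint of the span from the 5′ end, peaks covered 30.2% ± 2.5 for YAP and 21.3% ± 1.9 for TAZ (SD, n = 2), and beyond the midpoint 13.5% ± 2.1 and 10.5% ± 2.3.

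The peak with the highest fold at any of the 7 loci lay in STK3 at chr8:99935866-99936290, 18.7 kb inside the 5′ end. Its fold reached 5.79 in the second YAP library and 6.33 and 6.04 in the TAZ libraries, and it ranked 158th, 131st and 116th in those lists. In YAP replicate 1 the same place had a peak with a fold of 3.33 that ranked 114376th. It was thus among the best peaks of 3 lists and an ordinary one in the fourth. Another region, at chr8:99826228-99827289, was strong in both YAP libraries, with a fold of 4.77 and 4.195, and in TAZ replicate 1, with 4.24, but not in TAZ replicate 2, with 3.34. The best mean rank of the shared STK3 regions belonged to chr8:99713051-99714068, where the YAP folds were 4.73 and 3.43 and the TAZ folds 3.98 and 3.801.

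**Figure D2:**
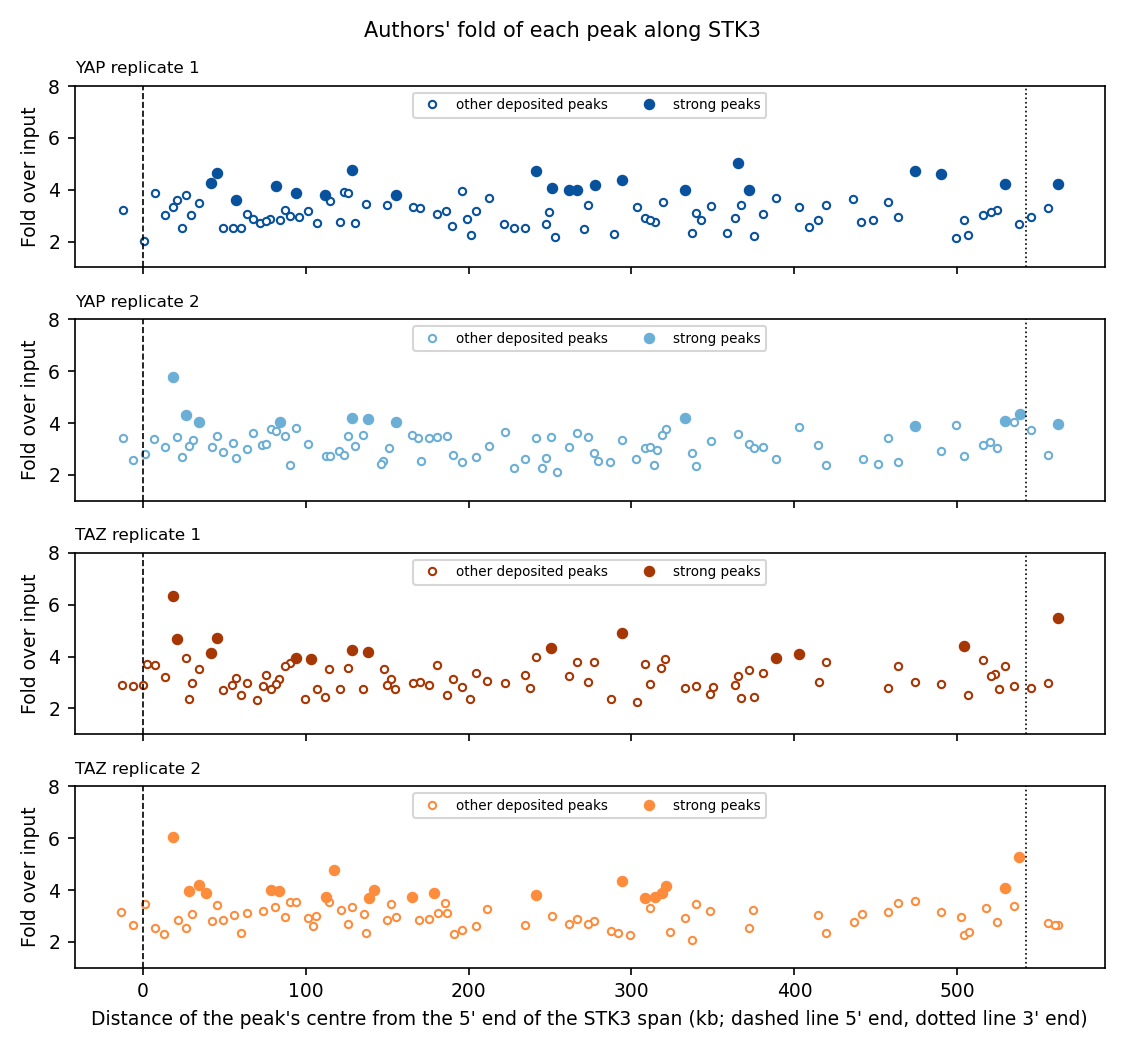
Authors' fold over input (linear axis) of every deposited peak along STK3, against the distance of the peak's centre from the 5′ end in kb; 1 panel per library, with filled points for strong peaks and open points for the others. The point 18.7 kb inside the gene is the highest of the second YAP library (5.79) and of both TAZ libraries (6.33 and 6.04), and is at 3.33 in YAP replicate 1.

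SAV1, on the minus strand at chr14:51100001-51135000, encodes the scaffold that joins MST kinases to LATS kinases. Peaks of YAP covered 25.5% and 22.6% of its window, and those of TAZ 14.5% and 14.9%. Relative coverage was 1.504 and 1.53 for YAP and 1.09 and 1.06 for TAZ, so the antibodies did not overlap and differed by 0.442. The number of peaks did not separate them, with 15 and 11 for YAP and 14 and 9 for TAZ. Among its 16 regions, 2 held peaks of both YAP libraries and of no TAZ library, at chr14:51105436-51105809 and chr14:51127931-51129232. That is 12.5%, against 6.87% of all regions. Peaks of both TAZ libraries and of no YAP library were in 1 region (6.25%, against 1.44%). The region at chr14:51095428-51096430 was strong in YAP replicate 1, with a fold of 4.90, and had a fold of 3.29 in YAP replicate 2 and of 3.36 and 2.77 in the TAZ libraries.

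MOB1A and MOB1B encode the paralogous MOB1 proteins, the coactivators of the LATS kinases. The MOB1A window, around chr2:74379001-74406000 on the minus strand, was covered to 56.8% and 47.1% by YAP peaks and to 49.8% and 54.3% by TAZ peaks. In relative coverage this was 3.35 and 3.18 for YAP and 3.73 and 3.88 for TAZ, and both TAZ libraries were above both YAP libraries. The MOB1B window, around chr4:71768001-71854000 on the plus strand, was covered to 44.8% and 37.3% by YAP peaks and to 31.0% and 24.97% by TAZ peaks. Its relative coverage was 2.64 and 2.52 for YAP and 2.33 and 1.78 for TAZ, with both YAP libraries higher. The 4 MOB1A values lay above the 4 MOB1B values, and the antibodies were ordered in opposite ways at the paralogs. The MOB1A window, 67 kb with 20 kb of flank on each side, also reaches TET3, BOLA3 and MTHFD2. That of MOB1B reaches DCK, so part of the coverage at both lies outside the named gene.

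On average MOB1B stood out most from its surroundings: it was covered 2.34 and 2.53 times as much as the 500 kb on each side by YAP peaks, and 2.86 and 2.46 times as much by TAZ peaks. For MOB1A these ratios were 2.07 and 1.69 for YAP and 1.92 and 1.76 for TAZ. On this scale neither paralog separated the antibodies, and the mean difference between YAP and TAZ turned to 0.0390 at MOB1A and -0.225 at MOB1B. At MOB1A the region ranked best among those shared by all 4 libraries was chr2:74395520-74401652, with YAP folds of 3.87 and 3.47 and TAZ folds of 3.51 and 4.61. At MOB1B it was chr4:71749224-71752106, which lies upstream of the gene, with YAP folds of 3.05 and 3.34 and TAZ folds of 4.39 and 3.33. Among the 23 MOB1B regions, 4 (17.4%) held peaks of both YAP libraries only and none held peaks of both TAZ libraries only. Over all regions these shares were 6.87% and 1.44%, so YAP-only regions were the more common kind in general.

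LATS1 encodes the kinase that phosphorylates YAP and TAZ, and its locus was the most covered of the 7. Its span lies at chr6:149979001-150039000 on the minus strand. Peaks of YAP covered 69.5% and 66.3% of the window, and those of TAZ 60.8% and 62.8%, in 17, 17, 22 and 22 peaks. Relative coverage was 4.10 and 4.48 for YAP and 4.56 and 4.48 for TAZ. Both TAZ values were higher by this measure, but YAP replicate 2, at 4.480, and TAZ replicate 2, at 4.483, were all but equal, and when only as many peaks as the shortest list holds were kept in each, the difference turned to 0.235 in favour of YAP. The locus was 1.90 and 1.97 times as covered as the 500 kb on each side for YAP, and 1.95 and 1.97 times for TAZ. Peaks were long, with a median width of 1936 and 1799 bp (YAP) and 1791 and 1711.5 bp (TAZ), against 613 to 717 bp in the whole lists. Coverage was high along the whole locus, between 52.8% ± 0.021 (TAZ, 5′ end to midpoint) and 85.0% ± 3.7 (YAP, 20 kb upstream). The window also holds part of KATNA1 and NUP43, the protein-coding neighbours of LATS1 in RefSeq, so part of this coverage lies outside LATS1. The windows of the other loci except NF2 also reach protein-coding neighbours, among them TOMM34 and KCNS1 at STK4, ATL1 at SAV1 and OSR2 at STK3.

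The best-ranked LATS1 region was chr6:149998856-150000776, 38.2 kb inside the gene. Its YAP folds were 4.47 and 3.71, its TAZ folds were 4.27 and 3.805, and it was strong in all libraries but YAP replicate 2, where it ranked 23218th. The region at chr6:150013738-150015558 was strong in both YAP libraries, with 4.39 and 4.26, and in TAZ replicate 1, with 4.10, but had a fold of 3.13 in TAZ replicate 2. LATS1 was the sole locus besides STK3 and STK4 with a strong peak in every library.

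Over the 7 loci together, both YAP libraries lay above both TAZ libraries, by a small margin. Relative coverage was 1.93 and 1.97 with anti-YAP, 1.87 and 1.70 with anti-TAZ, or 1.95 ± 0.031 against 1.79 ± 0.12 (SD, n = 2 each). The difference of 0.164 gave an exact two-sided permutation p = 0.33, the smallest that 2 libraries against 2 allow, so this test could not have passed a threshold of 0.05. It was 0.0787 without TAZ replicate 2, and -0.423 when peaks under a fold of 4 were left out. STK3 makes up much of the summed window and weighs most in these values.

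At 5 of the 7 loci the libraries of the antibodies did not overlap in relative coverage: both YAP values were higher at STK3, SAV1 and MOB1B, and both TAZ values were higher at LATS1 and MOB1A. With lists shortened to equal length the split was 5 with YAP higher and 1 with YAP lower, and the tile shares that follow were not recomputed that way. Such separation was common in the genome. Of the 100 kb tiles, 48.2% separated the antibodies, 34.5% with YAP higher and 13.7% with YAP lower; of 500 kb tiles, 44.1% and 14.7% did. The direction followed how densely a tile was covered. Where the mean relative coverage was under 1, YAP was higher in 40.7% of tiles and lower in 6.42%. Between 1 and 2, the range of STK3 and SAV1, the shares were 30.9% and 18%, and between 2 and 3, the range of MOB1B, they were 22.6% and 25.3%. At 3 or more, the range of LATS1 and MOB1A, YAP was higher in 6.52% and lower in 49%. The loci with higher TAZ values were thus the most densely covered, the order also seen among tiles. This order belongs to the ratio: full coverage gives a lower relative coverage in the YAP lists, which cover more of the genome. In percent covered, without the division, LATS1 averaged 67.9% for YAP and 61.8% for TAZ, and MOB1A 51.9% and 52.0%. The part of the division in the order among tiles was not tested. Measured against the 500 kb on each side, 2 loci separated the antibodies, STK3 and STK4, both with YAP higher, and once peaks under a fold of 4 were left out none did.

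Peaks at the 5′ ends were next compared, since the 5′ end of a gene span holds its promoter. The spans are given to the kb, so positions are good to about 1 kb. Within 2 kb of the 5′ end, all 4 libraries had a peak at LATS1, STK3, MOB1A, MOB1B and NF2, that is, at 5 of 7 loci, against 32.3% of all 4 kb tiles. With 1 kb each side the number was 4, since YAP replicate 2 had no peak that close at LATS1. With peaks of −log10 q of at least 2 the number was 3, and with peaks under a fold of 4 left out it was 0. At STK4, YAP replicate 1 had no peak there, and the peaks of YAP replicate 2, TAZ replicate 1 and TAZ replicate 2 covered 15.2%, 46.0% and 16.9% of the 4 kb. At SAV1 neither YAP library had a peak, and the TAZ libraries had a narrow one each at chr14:51134443-51135021, with a fold of 2.94 and 2.39, of low rank in both lists. Within 5 kb every locus had a peak of every library, but no genome share was computed for windows of that size, so this count has no comparison. MOB1A was the most covered, with 100% and 71.7% of the 4 kb for YAP and 74.4% and 77.6% for TAZ. Averaged over loci and libraries, the 4 kb were covered to 39.3%, against 47.9% from 10 to 2 kb before and 47.5% from 2 to 10 kb after. Both YAP libraries were lower there than in either of these zones. TAZ replicate 1 lay between its values in the zones, and TAZ replicate 2 was higher than in both. The tiles were not matched to genes, so the comparison with 32.3% is a description only.

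At NF2 the peaks flanked the 5′ end, as far as a position given to the kb can show. The regions on either side ended at position 29998956 and began at 29999835 of chromosome 22, and no library had a peak between them. At MOB1B a region ended at 71768441 of chromosome 4 and the next began at 71769574; the TAZ peaks of the first ran over the 5′ end, while the YAP peaks ended before it. At LATS1 the merged region over the 5′ end reached from chr6:150038694 upstream to 150047634 and so ended 0.307 kb inside the gene. Only TAZ peaks reached inside. The peaks of YAP replicates 1 and 2 ended upstream of the 5′ end as given, at 150039065 and 150040135. Averaged over the 7 loci, the 2 kb centred on the 5′ end were covered to 33.1% and 23.9% by YAP peaks and to 53.3% and 49.1% by TAZ peaks. Both TAZ libraries were thus higher there, although from 10 to 20 kb inside the gene YAP peaks covered more, with 49.7% and 44.5% against 31.1% and 34.7%. These windows were looked at after the values were known, and the difference was not tested.

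**Figure D3:**
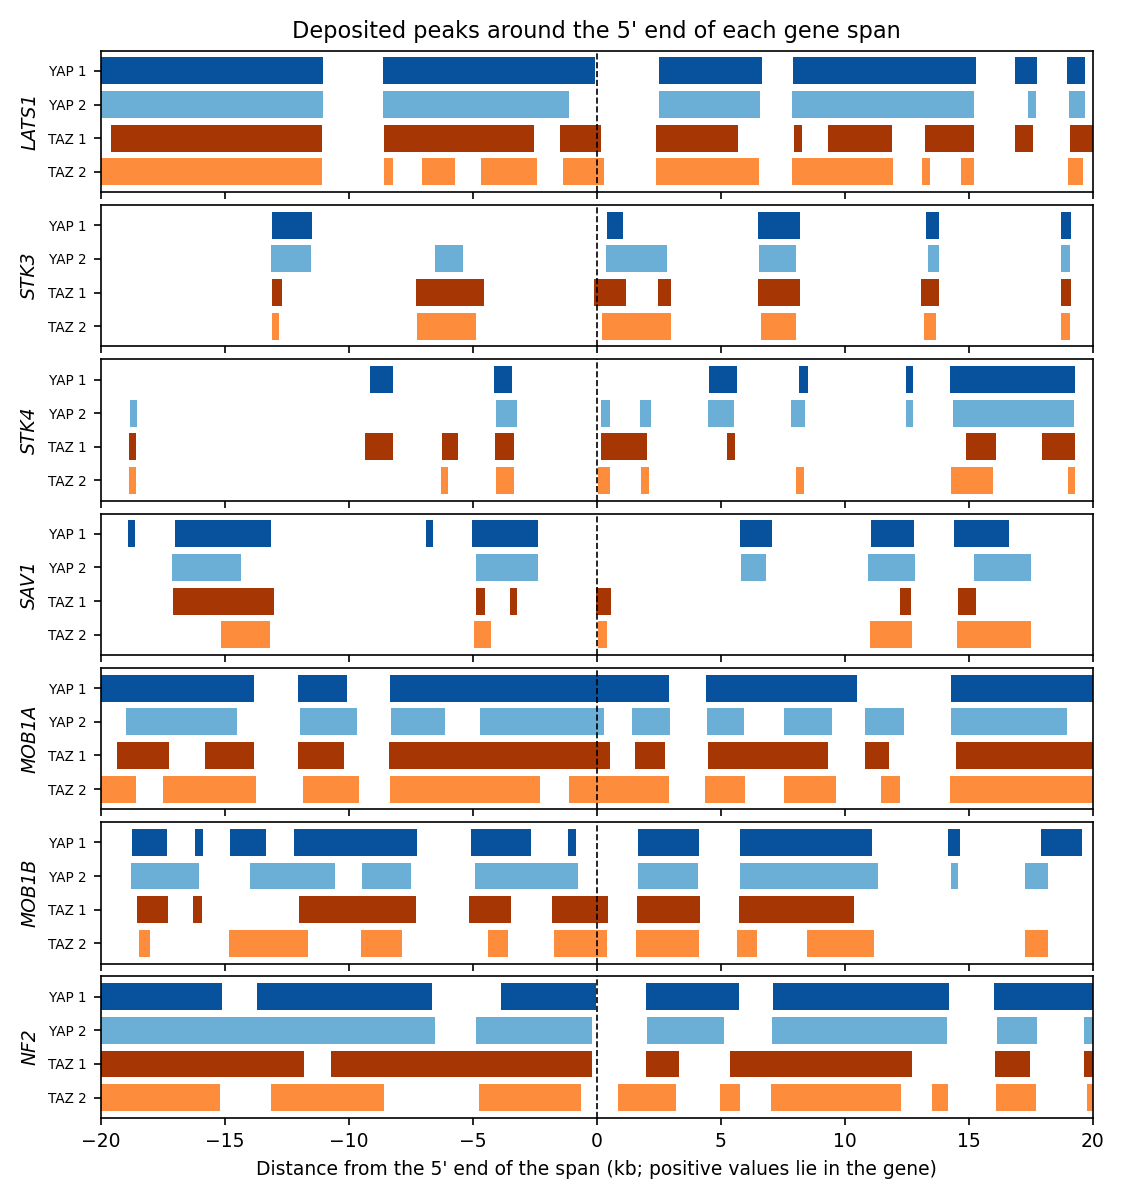
Deposited peaks of the 4 libraries (bars, 1 row per library) within 20 kb of the 5′ end of each gene span, against distance in kb, with positive values inside the gene and a dashed line at the 5′ end. Peaks lie on both sides of the line at NF2, cover it at MOB1A in all libraries and at MOB1B in the TAZ libraries, and at SAV1 the TAZ libraries alone have a peak beside it.

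RefSeq promoters (GRCh38.p14, 250 bases before to 50 after a start) were matched for 6 of the 7 genes: LATS1, STK4, SAV1, MOB1A, MOB1B and NF2. The 250 bases before the most upstream start are shown for 3 genes that differed in their peaks. Within 2 kb of the 5′ end all libraries had a peak at LATS1, and the TAZ libraries alone had one at SAV1. At NF2 peaks flanked the end. Capitals mark CG dinucleotides, and each sequence is given in the direction of the gene.
LATS1: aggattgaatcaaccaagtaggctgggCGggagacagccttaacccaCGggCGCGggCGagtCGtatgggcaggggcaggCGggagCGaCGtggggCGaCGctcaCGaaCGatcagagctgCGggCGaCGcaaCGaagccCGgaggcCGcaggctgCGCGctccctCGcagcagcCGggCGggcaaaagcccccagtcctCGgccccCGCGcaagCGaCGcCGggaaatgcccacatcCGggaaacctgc
SAV1: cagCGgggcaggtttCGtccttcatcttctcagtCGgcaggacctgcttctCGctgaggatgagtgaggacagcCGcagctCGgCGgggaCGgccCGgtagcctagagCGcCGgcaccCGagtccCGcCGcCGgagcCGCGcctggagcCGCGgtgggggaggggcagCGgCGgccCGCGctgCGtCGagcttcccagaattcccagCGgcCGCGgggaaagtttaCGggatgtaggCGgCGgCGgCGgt
NF2: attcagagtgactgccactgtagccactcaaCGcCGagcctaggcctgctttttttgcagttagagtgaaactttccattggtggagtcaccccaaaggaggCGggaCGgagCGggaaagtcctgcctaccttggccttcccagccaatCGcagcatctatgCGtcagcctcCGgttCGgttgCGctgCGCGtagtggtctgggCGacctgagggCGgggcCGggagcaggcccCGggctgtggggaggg
On GRCh38.p14 these stretches are chr6:149718102-149718351 (minus strand), chr14:50668307-50668556 (minus strand) and chr22:29603306-29603555 (plus strand). They hold 31, 33 and 16 CG dinucleotides, and 70.0%, 72.0% and 62.4% of their bases are G or C. Over all 35116 RefSeq promoters the medians are 11 and 58.0%. All of these exceed the medians, NF2 least, with a GC share at or above that of 61.3% of promoters. For the other annotated start of LATS1 the values are 29.2% and 2 CG, and for that of NF2 71.6% and 31. The promoters were not placed on the hg19 peaks.

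The 300-base promoters were searched on both strands for GGAATG, the core of the TEAD motif. GGAATG was in none of the 6 genes' promoters and is in 14.03% of all promoters. The lack of a match in these windows says nothing about TEAD binding elsewhere in the loci.

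Most regions of the loci were found with both antibodies. Of the 244 regions, 129 (52.9%) had a peak of all 4 libraries, against 39.2% of all regions. The share was highest at LATS1, with 15 of 17 regions, and at MOB1A, with 9 of 14, and lowest at NF2, with 9 of 26. At STK3 it was 65 of 118, at SAV1 8 of 16, at MOB1B 11 of 23 and at STK4 12 of 30. The regions found in all 4 libraries were wider, with a median of 1975 bp against 317.5 bp for those found in 1 library; over all regions these medians were 1744 and 336 bp. Where each library's peaks had to cover at least 50% of the region, 72 regions remained. With peaks of a fold of at least 4, none did.

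Regions with peaks of 1 antibody alone were also counted. A peak of any YAP library and of no TAZ library was in 35 regions (14.3%, against 20.3% of all regions), and a peak of any TAZ library and of no YAP library in 19 (7.79%, against 10.4%). Peaks of both YAP libraries and of no TAZ library were in 15 regions (6.15%, against 6.87% of all regions), of which 7 lay in STK3, 4 in MOB1B, 2 in SAV1 and 1 each in STK4 and NF2. Peaks of both TAZ libraries and of no YAP library were in 3 regions (1.23%, against 1.44%). These were the SAV1 5′ end, chr20:43588730-43589412 upstream of STK4 and chr22:30098340-30102025 beyond the 3′ end of NF2. Their folds lay between 2.35 and 3.19. At LATS1 and MOB1A no region of either kind was found.

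**Figure D4:**
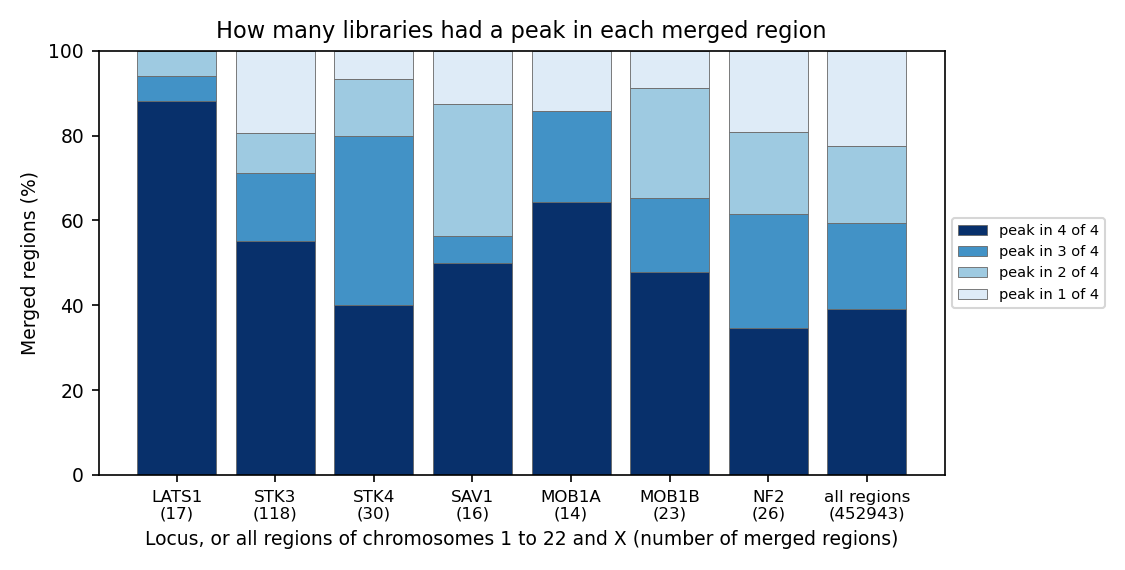
Share of merged regions (%, stacked bars from 0) with a peak in 4, 3, 2 or 1 of the 4 libraries, by locus and over all regions; the number of regions is under each name. LATS1 has the largest share found in all 4 libraries (15 of 17) and NF2 the smallest (9 of 26), against 39.2% of all regions.

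The bases under peaks overlapped between libraries in the order seen in the whole lists. Over the 7 loci the Jaccard index, bases under peaks of both libraries divided by bases under either, was 0.700 for the YAP pair and 0.540 for the TAZ pair. Between antibodies it lay between 0.541 and 0.602, both of them values of YAP replicate 1, against the second and the first TAZ library in turn. The same indices over all chromosomes were 0.612, 0.494, 0.495 and 0.540. The TAZ libraries thus overlapped no more with each other than with the YAP libraries, at these loci and over the genome. At LATS1 the YAP pair reached 0.940 and the TAZ pair 0.804. At NF2 they were 0.717 and 0.419, and at SAV1 0.610 and 0.393.

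Strong peaks were unevenly spread over the loci. The lists hold 6.59 strong peaks per Mb on average. STK3 held 21 and 12 strong YAP peaks and 14 and 20 strong TAZ peaks, or 36.1, 20.6, 24.1 and 34.4 per Mb, against 10.9 to 13.5 per Mb on chromosome 8. LATS1 held 6 and 2 for YAP and 4 and 4 for TAZ, or 60, 20, 40 and 40 per Mb, against 14.96 to 18.1 per Mb on chromosome 6. Per Mb, LATS1 thus lay above STK3 in all libraries but YAP replicate 2. The 500 kb on each side of STK3, 1 Mb together, held 35, 27, 32 and 25 strong peaks in the same order. STK3 was thus above its surroundings in YAP replicate 1 and TAZ replicate 2 and below them in the other libraries. Around LATS1 the same stretch held 25, 22, 19 and 14, so LATS1 was above its surroundings in all libraries but YAP replicate 2. STK4 held 4 and 3 for YAP and 1 and 3 for TAZ. MOB1A had 2 in YAP replicate 1, 2 in TAZ replicate 2 and none in the others, and SAV1 had 1 in YAP replicate 1 alone. MOB1B and NF2, both densely covered, had none in any library. Strong peaks were also few on their chromosomes, with 4.07 to 4.60 per Mb on chromosome 4 and 1.84 to 2.95 on chromosome 22. The 500 kb on each side held 0, 0, 0 and 1 at MOB1B and 0, 0, 3 and 4 at NF2. At such rates a window of 126 kb (MOB1B) or 136 kb (NF2) would often hold none.

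In all, 34 and 17 strong YAP peaks and 19 and 29 strong TAZ peaks lay at the loci. The difference of the means, 1.5, was far below the spread within an antibody (exact two-sided permutation p = 1). Leaving out the first or the second YAP library gave -7 and 10, and leaving out the first or the second TAZ library gave -3.5 and 6.5. A strong peak of at least 1 library was in 63 of the 244 regions (25.8%, against 13.4% of all regions), of at least 2 libraries in 25 (10.2%, against 3.08%) and of at least 3 in 10 (4.10%, against 0.778%). Of those 10, 6 lay in STK3, 2 in LATS1 and 2 in STK4. Of the 25, 18 lay in STK3, 4 in LATS1 and 3 in STK4. Of the 63, 42 lay in STK3 and 10 in LATS1, so the pooled shares rest mostly on these loci. By locus, the share with a strong peak of at least 1 library was 58.8% at LATS1, 35.6% at STK3 and 28.6% at MOB1A. It was 20% at STK4 and 6.25% at SAV1, and MOB1B and NF2 had none. No region was strong in all 4 libraries, and 0.176% of all regions were. If the 244 regions were independent, finding none would allow a share of up to 1.23% (3 divided by 244). Neighbouring regions of the same locus are not independent, so this bound is rough. Of the 63 regions, 53 had a deposited peak in all 4 libraries, so a region strong in some lists was mostly a weaker peak in the others. The same share over all regions with a strong peak was not computed, so this count has no comparison.

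How significant a peak of given fold was also differed between the loci. Among peaks with a fold of 3 to 3.5, the median −log10 p at LATS1 was 6.97 and 6.39 for YAP and 5.36 and 5.59 for TAZ. In the whole lists it was 5.51, 4.78, 4.45 and 4.46. STK3, with 6.67, 5.66, 5.08 and 5.00, and MOB1A, with 5.86, 5.06, 4.93 and 4.62, also lay above the lists in every library. SAV1, with 5.16, 4.26, 3.92 and 3.75, and NF2, with 5.09, 4.72, 3.92 and 4.15, lay below them in every library. LATS1 and STK3, the loci with the most strong peaks, were thus among those where peaks of equal fold had a higher −log10 p, and the part of this in their count was not tested. The medians rest on as few as 1 peak, at SAV1 in TAZ replicate 2. With strong peaks chosen by fold, the numbers at STK3 were 8, 6, 8 and 11, at LATS1 3, 1, 3 and 1, and at NF2 0, 0, 2 and 0.

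**Figure D5:**
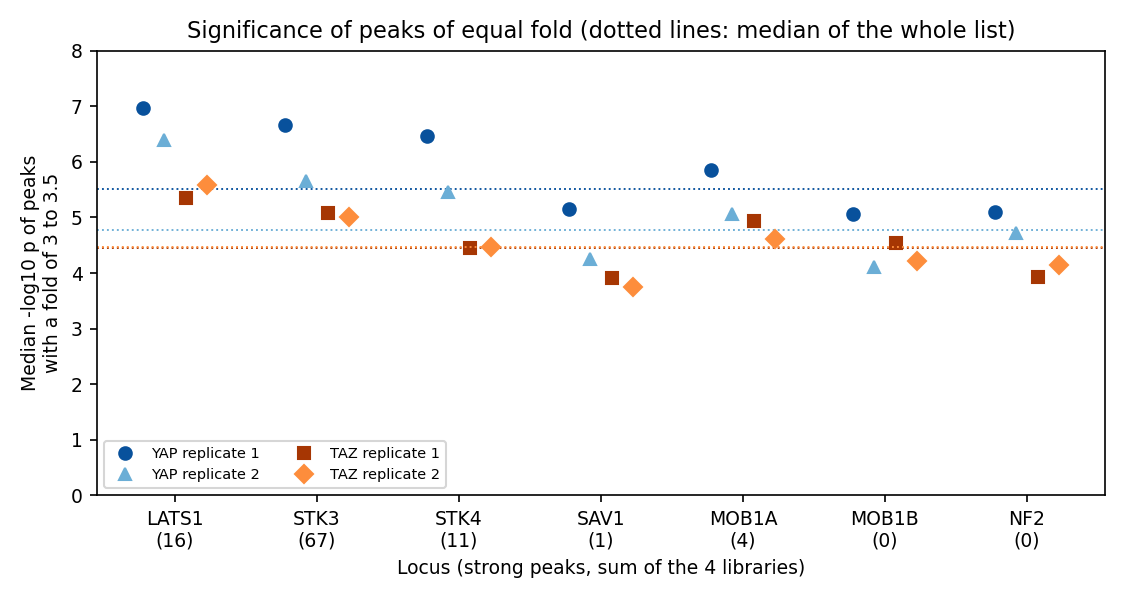
Median −log10 p (linear axis) of peaks with a fold of 3 to 3.5 at each locus in the 4 libraries, with dotted lines at the median of each whole list in the same colour; the number under each name is the sum of strong peaks over the 4 libraries. LATS1, STK3 and MOB1A lie above the lists in all libraries, and SAV1 and NF2 below.

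The paralog pairs were then set side by side. MOB1A was more covered than MOB1B in all 4 libraries, by relative coverage, and had strong peaks in YAP replicate 1 and TAZ replicate 2, where MOB1B had none. STK3 and STK4 were alike in relative coverage for YAP replicate 1, 1.32 and 1.34, and differed in both directions in the other libraries. The kinase paralogs shared a coverage below that of the 500 kb around them and a greater coverage of the 5′ than of the 3′ part of the span. For STK4 in TAZ replicate 2 this order was turned, with 12.9% before and 15.6% after the midpoint.

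Other genes of the pathway were LATS2, the LATS1 paralog; TAOK1, TAOK2, TAOK3 and MAP4K4, kinases upstream of LATS; WWC1, FRMD6, RASSF1 and AMOT, scaffolds and regulators. Their spans were entered by hand to the kb and match the length in RefSeq within 5% for 8 of the 9 genes, FRMD6 being the exception, so their values are approximate. Relative coverage was above the tile median at 7 of the 9, and their median was 2.71, against 2.32 for the 7 core loci. TAOK1 and TAOK2 had 3.71 each as the mean of the 4 libraries, and FRMD6 and AMOT had 0.335 and 0.118. The antibodies did not overlap at 4 of the 9, against 48.2% of 100 kb tiles, with YAP higher at FRMD6 and lower at LATS2, TAOK2 and RASSF1. LATS2 had 2.72 ± 0.013 for YAP and 3.11 ± 0.085 for TAZ (SD, n = 2), below LATS1 with both antibodies. Among these 4, YAP was higher at the sparsely covered FRMD6, whose span failed the length check, and TAZ at densely covered genes. The antibodies overlapped at the densely covered TAOK1, TAOK3 and WWC1, at MAP4K4 and at the sparsely covered AMOT.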

How the data were processed

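Chromatin from H1299 cells was immunoprecipitated with an antibody against YAP or TAZ, and each of these 4 libraries has a list of broad peaks. The tools named per the submitters' processing notes are MACS2, Bowtie2, cutadapt and SAMtools, with the build hg19. No version is stated there. The authors' deposited lists give a fold of ChIP signal over input, a −log10 p, a −log10 q and a score for each peak; the score was not used. Per the file headers, which are here the peak names, all 4 lists were called against 1 common input, whereas the list names point to 2 inputs; which is true is unsettled. The lists hold no read totals, so depth is unknown.

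Peaks on chromosomes 1 to 22 and X were intersected with each gene span plus 20 kb (minimum overlap 1 bp) in Python 3.11.15 with pandas 2.3.3. Spans were those of the selection rule, given to the kb; strands came from RefSeq promoters, except that of STK3, which was taken as background knowledge. Strong peaks were the 20000 of each list with the highest −log10 q. Regions were peaks of the 4 lists merged where they overlapped. Antibodies were compared by exact permutation over libraries. Interval functions were tested on simulated data. The members, lists and tests were chosen with earlier results of these data known. The rule named, for each locus, the region at the 5′ end, the region shared by all 4 libraries that ranked best, and every region with a strong peak. Of the last, most are given as counts only, among them some regions strong in 3 libraries. This narrowing was made after the values were seen. No input track was analysed here. The AP-1 motif search is not reported here.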

Additional observations from a re-analysis of the deposited data

How the results depend on the processing

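The depth of the libraries is unknown, and with 2 libraries per antibody no permutation p can fall below 0.33. The YAP minus TAZ difference in relative coverage over the 7 loci kept its sign in 9 of 10 alternatives. Most of these could not have turned it. Both YAP values lay above both TAZ values, so leaving out 1 library keeps the sign, and the replicate block leaves the difference unchanged by construction. The difference was -0.423 with a fold of at least 4 and 0.0787 to 0.250 when 1 library was left out. Libraries share only a replicate number: deviations of same-numbered libraries from their antibody means had a correlation of 0.399 over 28365 tiles. With the replicate number as a block the difference stayed 0.164 (exact sign-flip p = 0.5) and that in strong peaks stayed 1.5 (p = 1).

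The number of loci that separated the antibodies was 5 to 7 when 1 library was left out. Leaving out a library cannot undo a separation, so this number could not fall. The number was 0 with a fold of at least 4 and 2 against the 500 kb on each side. That scale was chosen after seeing the data, as was the whole chromosome (7). Locus differences changed sign with a fold of at least 4 at STK3 (-0.0156), SAV1 (-0.0892) and MOB1B (-0.0451), with shortened lists at LATS1 (0.235), and against the 500 kb on each side at MOB1A (0.0390) and MOB1B (-0.225). Loci with a peak of all libraries at the 5′ end numbered 3 with −log10 q of at least 2 and 0 with a fold of at least 4, and 5 to 6 without 1 library. Shared regions numbered 72 when peaks had to cover 50% of the region, 0 with a fold of at least 4, and 140 to 148 without 1 library. Without 1 library, the 5′ end and shared-region counts asked for peaks of the remaining libraries only, a looser criterion. The difference in strong peaks was -1.5 with 5000 per library, -1.5 by fold, and -7 to 10 without 1 library. At a fold of at least 4 few peaks are left (53 regions). Apart from this and the looser criterion without 1 library, the cause of the changes was not tested.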
